A study of Mus musculus with 12 samples.

Results

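The transcripts of 55 mouse genes for pre-mRNA splicing were followed across undifferentiated and retinoic acid-treated embryonic stem cells, each with and without an inhibitor of O-GlcNAc transferase (OGT). The members were all protein-coding genes of the deposited table whose symbols begin with Srsf and a number, Hnrnp, Sf3a, Sf3b or Snrp, without Snrpn, together with Clk1 to Clk4. They were 55 of 54555 genes, chosen by symbol and not by their values, and all 55 reached 1 FPKM in 3 or more libraries, as did 14866 genes in all, which were tested. They comprised 11 SR proteins, 20 hnRNP proteins, 4 CLK kinases, 9 subunits of the SF3A and SF3B complexes, and 11 Sm and other snRNP proteins.

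RNA was sequenced in 12 libraries of R1 cells, an established mouse embryonic stem cell (mESC) line, in 4 groups of 3. RA_OGTi cells were pre-treated with the OGT inhibitor Ac45SGlcNAc at 25 µM for 48 h. They were then given retinoic acid (RA), 1 µM over 48 h, with leukemia inhibitory factor left out of the medium. RA_control cells had a DMSO pre-treatment before the same RA step. The mESC_OGTi cells stayed undifferentiated and received 25 µM of the inhibitor for 48 h, and mESC_control cells were undifferentiated and had no inhibitor. All groups came from 1 cell line. RA was given together with withdrawal of leukemia inhibitory factor, and the sources used here do not say whether the inhibitor was kept during the RA step, so these cannot be told apart. RA_OGTi cells had the RA step after the inhibitor pre-treatment, so time since inhibition and RA cannot be told apart. The design asks what RA changes, what OGT inhibition changes, and whether inhibition alters the change with RA.

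Introns are removed by the spliceosome, which is built from small nuclear ribonucleoproteins (snRNPs). Sm proteins form a ring around the U1, U2, U4 and U5 RNAs, and the SF3A and SF3B complexes hold the U2 snRNP at the branch point. SR proteins bind exons and mostly favour the use of nearby splice sites, while hnRNP proteins bind nascent RNA and often oppose it. CLK kinases phosphorylate SR proteins. Many of these genes regulate their own transcripts through poison exons or retained introns, and many splicing proteins carry O-GlcNAc.

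Each library held 15553627 to 17833464 fragments assigned to genes, and the least covered member, Srsf12, had at least 17 of them. The first principal component of all genes held 76.7% of the variance and parted RA-treated from undifferentiated libraries, and the second, with 7.43%, parted inhibitor from control libraries. The mESC markers Pou5f1, Sox2, Nanog, Zfp42 and Esrrb were all detected and together summed to 233 to 250 FPKM in RA_OGTi, 283 to 318 FPKM in RA_control, 1790 to 1830 FPKM in mESC_OGTi and 1820 to 1830 FPKM in mESC_control. Of other cell types, 6 extraembryonic endoderm markers summed to 16.6 to 18.6 FPKM in RA_OGTi, 13.6 to 16.0 in RA_control, 4.80 to 6.03 in mESC_OGTi and 4.92 to 5.09 in mESC_control. The 7 fibroblast markers summed to 9.80 to 14.0 FPKM over all libraries, most of it Thy1, with Dcn at 0 everywhere. The labels number the replicates without saying what they are, so p-values measure the spread between libraries, which may be technical.

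Levels are given in FPKM, fragments per length of exon scaled to the library, which can be set side by side between genes as far as the gene lengths hold. The deposited lengths of Sf3b2 and Srsf7 were 3231 and 2279 bases, against 6822 and 3550 in the GENCODE M21 annotation. Their places in the order therefore depend on the annotation used. In mESC_control cells the median member stood at 48.1 FPKM. Hnrnpa1, which binds splicing silencers, was highest at 326 ± 14.8 FPKM, followed by Hnrnpa0 at 292 ± 6.13 FPKM and Hnrnpab at 251 ± 3.53 FPKM (SD, n = 3 each). The lowest was Srsf12, a minor SR-like repressor, at 0.538 ± 0.0466 FPKM. Hnrnpu and Srsf1 were also low, at 2.41 ± 0.456 and 2.87 ± 0.172 FPKM. The highest members of the other families were Srsf7 at 117 ± 3.87 FPKM, Snrpb, the Sm protein B gene, at 161 ± 8.86 FPKM and Sf3b2 at 174 ± 7.69 FPKM, and the 4 CLK genes stayed between 3.17 and 11.2 FPKM. With RA the order at the top changed: Hnrnpa0 led at 229 ± 9.81 FPKM in RA_OGTi and 200 ± 7.34 FPKM in RA_control, ahead of Hnrnpa1 at 165 ± 3.10 and 180 ± 3.95 FPKM. The difference between Hnrnpa0 and Hnrnpa1 exceeded their SDs in all 3 of these groups, and in mESC_OGTi they stood at 301 ± 8.28 and 297 ± 7.43 FPKM, within their SDs.

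The 55 genes together took a smaller part of the RNA in RA-treated cells. They summed to 2620 ± 77.8 FPKM in RA_OGTi and 2590 ± 71.6 FPKM in RA_control, against 4010 ± 82.4 FPKM in mESC_OGTi and 3990 ± 77.0 FPKM in mESC_control (SD, n = 3 each). As a share of fragments, which does not depend on the scaling of the deposited values, they held 1.08 to 1.09% and 1.06 to 1.08% in the RA groups, against 1.38 to 1.42% and 1.40 to 1.43% in the mESC groups. The ranges of RA-treated and undifferentiated libraries did not overlap, while within each state the inhibitor and control libraries lay close together. In bulk RNA, fewer cells of a type and less RNA per cell cannot be told apart.

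**Figure D1:**
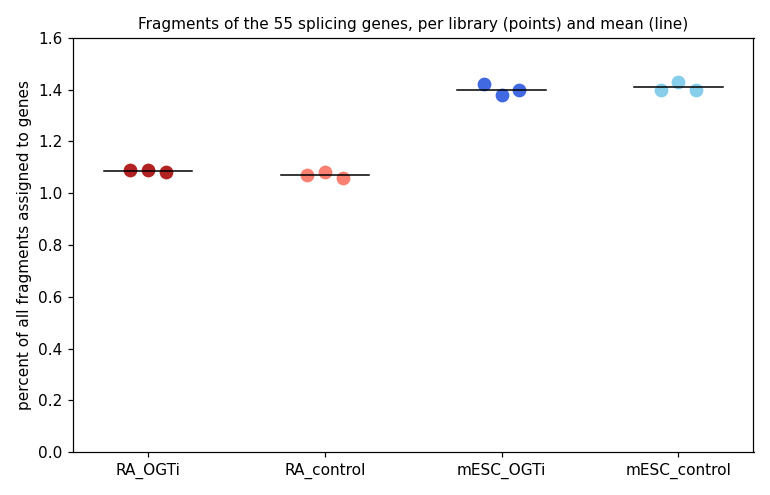
Share of all gene-assigned fragments that fell on the 55 splicing genes (y axis, percent) in each library (points) of the 4 groups (x axis), with group means as lines. The 6 RA-treated libraries lie between 1.06 and 1.09%, below the 6 undifferentiated libraries at 1.38 to 1.43%.

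Without the inhibitor, RA lowered most of the splicing genes. In RA_control against mESC_control, 41 of 55 members fell and 6 rose (limma on log2(FPKM + 1), p adjusted by Benjamini-Hochberg over the 14866 genes, threshold 0.05), where 37.2% of these genes fell and 33.7% rose. The median log2 fold change of the members was -0.51, against -0.03 over all genes tested. Better expressed genes fell more often in general. Among the 7942 genes with a mean of at least 5 FPKM the median was -0.18 and 35.7% of calls were higher. The 50 members among them had a median of -0.53. All 9 SF3 subunits fell, as did 9 of 11 Sm and snRNP genes, 15 of 20 hnRNP genes and 8 of 11 SR genes, while no CLK kinase passed as lower. At an unadjusted p under 0.05, 1 CLK gene was lower, and limma-voom on recovered fragments called 42 members lower and 7 higher. The fall moved together with that of the mESC markers, whose part in it was not tested.

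Among SR proteins, Srsf3, the smallest of them, was the most reduced. It had 25.8, 27.6 and 25.4 FPKM in RA_control libraries, against 65.9, 76.0 and 73.0 FPKM in mESC_control libraries (log2 fold change -1.41, SE 0.056, limma adjusted p = 1.60e-09). Srsf6 (ENSMUSG00000016921, chromosome 2, 162931528 to 162937121, GRCm38) had 27.9, 30.3 and 28.4 FPKM, against 63.6, 67.6 and 68.5 FPKM (log2 fold change -1.18, SE 0.054, adjusted p = 4.55e-09). No RA_control library of either gene came near the lowest mESC_control library. Srsf2, Srsf7 and Srsf10 fell by 0.88, 0.72 and 0.67 on the log2 scale, and Srsf1, the founding member of the family, fell by 0.46. Srsf1 stood at 1.82 ± 0.309 FPKM in RA_control and 2.87 ± 0.172 FPKM in mESC_control, where log2(FPKM + 1) shows smaller changes. Srsf5 was level, with 59.9 ± 2.47 FPKM in RA_control and 59.6 ± 2.35 FPKM in mESC_control (SD, n = 3 each; log2 fold change 0.01, SE 0.047). Srsf12 rose to 2.54, 2.72 and 2.19 FPKM in RA_control, against 0.485, 0.570 and 0.560 FPKM in mESC_control (log2 fold change 1.18, SE 0.11, adjusted p = 2.10e-06). With a pseudocount of 0.1 in place of 1, the log2 fold change of Srsf12 was 2.01. It was the least abundant member in undifferentiated cells and the SR gene that rose.

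Among hnRNP proteins the falls ran up to those of Hnrnpd, known as AUF1, which binds AU-rich elements and telomeric repeats, and Hnrnpm. Hnrnpd (ENSMUSG00000000568, chromosome 5, 99955935 to 99978938, minus strand) had 15.5, 14.6 and 14.9 FPKM in RA_control, against 42.1, 41.8 and 45.7 FPKM in mESC_control (log2 fold change -1.46, SE 0.045, adjusted p = 2.47e-10). Hnrnpm had 31.5, 31.3 and 28.6 FPKM, against 75.9, 81.2 and 83.1 FPKM (log2 fold change -1.37, SE 0.052, adjusted p = 1.13e-09). Both groups of libraries were tight and far apart. Hnrnpab fell by 1.17 on the log2 scale, Hnrnpf by 0.96, Hnrnpl by 0.91, Hnrnpa1 by 0.86, Hnrnpa2b1 by 0.63 and Hnrnpk by 0.58. Hnrnpc, which binds uridine tracts and in human cells keeps Alu elements out of exons, did not pass, at 134 ± 13.8 FPKM in RA_control and 143 ± 6.81 FPKM in mESC_control (SD, n = 3 each; log2 fold change -0.09).

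Against this pattern, the G-tract binding Hnrnph1 and Hnrnph3 rose while their relatives Hnrnph2 and Hnrnpf fell. Hnrnph1 (ENSMUSG00000007850, chromosome 11, 50376990 to 50386528) had 42.6, 45.0 and 41.4 FPKM in RA_control, against 34.7, 33.6 and 34.4 FPKM in mESC_control (log2 fold change 0.32, SE 0.047, adjusted p = 7.67e-05). Hnrnph3 rose by 0.23 and Hnrnpa3 by 0.21 on the log2 scale, with adjusted p = 0.00910 and 0.0401. Hnrnph2, on chromosome X, had 10.4, 10.8 and 9.78 FPKM, against 16.5, 17.7 and 16.8 FPKM (log2 fold change -0.66, SE 0.057, adjusted p = 8.05e-07). For none of these 4 genes did the libraries of both groups overlap. Hnrnph1 and Hnrnph2 are close paralogs, so reads shared between them could be placed on either.

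Of the CLK kinases, which phosphorylate SR proteins, 2 rose and the other two did not pass. Clk3 had 13.1 ± 0.982 FPKM in RA_control, against 6.94 ± 0.578 FPKM in mESC_control (SD, n = 3 each; log2 fold change 0.83, SE 0.066, adjusted p = 4.32e-07). Clk1 had 8.50, 7.90 and 7.36 FPKM, against 6.18, 6.28 and 5.53 FPKM (log2 fold change 0.35, SE 0.072, adjusted p = 0.000943). All RA_control libraries of both genes lay above all mESC_control libraries. Clk2 and Clk4 had log2 fold changes of -0.15 and 0.14 and did not pass (adjusted p = 0.0630 and 0.163).

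The core components fell with little exception. Sf3a3 fell by 1.16 on the log2 scale, Sf3b4 fell by 1.15 and Sf3b3 fell by 1.12. Sf3b3, a scaffold of SF3B, had 25.2, 24.0 and 26.0 FPKM in RA_control, against 56.0, 53.9 and 56.6 FPKM in mESC_control (SE 0.042, adjusted p = 1.06e-09). Sf3b1, the subunit that contacts the branch-point helix, fell by 0.50 to 25.0 ± 0.476 FPKM in RA_control, against 35.8 ± 1.28 FPKM in mESC_control (SD, n = 3 each). Subunits of one complex thus differed in the size of their falls, as Sf3b2 and Sf3b6 each fell by 0.46 within SF3B, less than Sf3b4 and Sf3b3. Of the Sm genes, Snrpd3 fell by 0.87 and Snrpd1 by 0.66, and of the U1 proteins Snrpa fell by 0.71 and Snrpc by 0.32. Snrpb fell to 115, 103 and 119 FPKM in RA_control, against 151, 167 and 164 FPKM in mESC_control (log2 fold change -0.51, SE 0.075, adjusted p = 7.36e-05). Snrpe and Snrpf, also Sm genes, did not pass.

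Calls of 4 members depended on 1 library. Hnrnpu, the low nuclear scaffold protein gene, had 2.31, 0.743 and 0.683 FPKM in RA_control, against 2.93, 2.20 and 2.09 FPKM in mESC_control (log2 fold change -0.67, SE 0.25, adjusted p = 0.0298), and the groups overlapped through RA_control replicate 1. Its call was lost without mESC_control replicate 1 or RA_control replicate 2 or 3, at adjusted p = 0.0978 to 0.117 (0.000845 to 0.117 over all alternatives). Srsf4 lost its call in 4 of 6 fits that left out 1 library, without mESC_control replicate 2 or 3 or RA_control replicate 1 or 2 (0.0506 to 0.0764, range over all alternatives 0.00519 to 0.954). Hnrnpa3 lost it in 4 of 6, without mESC_control replicate 1 or 2 or RA_control replicate 2 or 3 (0.102 to 0.112, range 0.00180 to 0.112). Snrpg lost it without RA_control replicate 2 (0.0659, range 0.000409 to 0.294). Snrpe had 67.0, 71.6 and 36.6 FPKM in mESC_control, and its log2 fold change was -0.33 without the third of these libraries (adjusted p = 0.0460) and -0.03 with it. Snrpe is uncertain in any case, since its processed pseudogene Snrpert stood at 48.7 to 97.7 FPKM over all libraries.

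The size of the fall depended on how libraries were scaled. The deposited values carry a scaling under which the median gene was near 0 between RA-treated and undifferentiated cells. Scaled to library totals, the median of all genes moved to 0.16 and 34 members fell and 9 rose, and under TPM scaling it moved to 0.22 and 32 fell and 10 rose. The median of the members was -0.30 under both, so relative to all genes it stayed lower. Among all calls the share of higher ones was 47.5% as deposited, 63.8% by library total and 66.3% by TPM. Hnrnpc, which did not pass as deposited, turned to a log2 fold change of 0.15 with adjusted p = 0.0232 under TPM, and Srsf5, Hnrnpr and Clk4 became higher under both. Srsf4 came to 0.00 by library total and 0.01 by TPM and lost its call under both. The 6 members that rose as deposited rose under both of these scalings too.

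**Figure D2:**
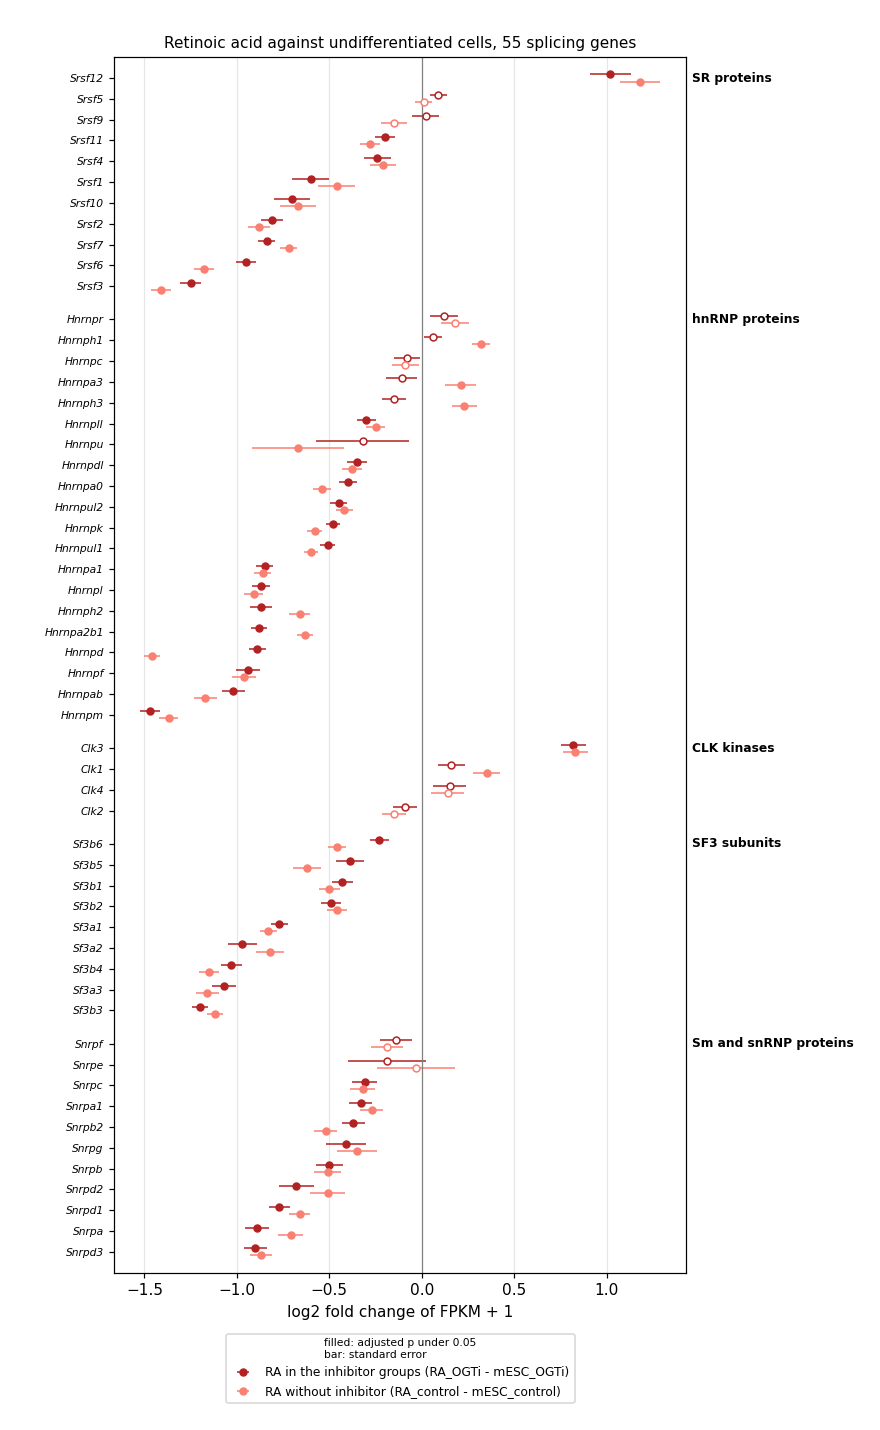
Log2 fold change of FPKM + 1 (x axis, with standard error) of each of the 55 members (y axis, by family) with RA in the inhibitor groups (RA_OGTi minus mESC_OGTi) and without inhibitor (RA_control minus mESC_control); filled points passed an adjusted p of 0.05. Most points lie left of 0, all 9 SF3 subunits in both comparisons (Sf3b6 in the inhibitor groups turned to 0.01 by library total and 0.03 by TPM and lost its call), while Srsf12 and Clk3 lie right of it in both.

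In the inhibitor groups the response to RA had the same broad form. In RA_OGTi against mESC_OGTi, 40 members fell and 2 rose (limma, adjusted p under 0.05), where 36.7% of all genes tested fell and 32.0% rose, and the median log2 fold change was -0.45 for members and -0.04 for all genes. At a mean of at least 5 FPKM the medians were -0.48 for 50 members and -0.18 for all 7942 genes. All 40 that fell were among the 41 that fell without inhibitor, and Hnrnpu was the one left out. The 2 comparisons share no library. Srsf12 rose to 2.41, 2.21 and 1.77 FPKM in RA_OGTi, against 0.554, 0.737 and 0.346 FPKM in mESC_OGTi (log2 fold change 1.02, SE 0.11, adjusted p = 7.42e-06), and Clk3 rose by 0.82 on the log2 scale. Hnrnpm fell by 1.47, Srsf3 by 1.25 and Sf3b3 by 1.20. Hnrnpd fell by 0.89, to 25.9, 25.5 and 25.5 FPKM in RA_OGTi, against 49.9, 47.1 and 48.7 FPKM in mESC_OGTi. Hnrnph1, Hnrnph3, Hnrnpa3 and Clk1, which rose without inhibitor, did not pass here, with log2 fold changes of 0.06, -0.15, -0.11 and 0.16. By library total or as TPM, Hnrnph1 passed as higher, at 0.31 and 0.33 (adjusted p = 0.000577 and 0.00198), and so did Clk1, at 0.38 and 0.43 (adjusted p = 0.00114 and 0.00257), which also passed with limma-voom on recovered fragments (adjusted p = 0.0431), under a replicate block (0.0272) and without RA_OGTi replicate 3 or mESC_OGTi replicate 2 (0.0308 and 0.0452). Hnrnph3 passed as lower in a fit of these groups alone (0.0387), under the block (0.0320) and without mESC_OGTi replicate 1 (0.0424), and Hnrnpa3 without mESC_OGTi replicate 3 (0.0435). Scaled to library totals or as TPM, 30 members fell and 9 rose in either case. Without mESC_OGTi replicate 3 the call of Srsf4 was lost (adjusted p = 0.0530, range over all alternatives 0.00239 to 0.994).

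In RA-treated cells the inhibitor moved some splicing genes up and others down. In RA_OGTi against RA_control, 9 members rose and 7 fell (limma, adjusted p under 0.05), where 17.6% of all genes tested rose and 14.3% fell. The members' shares, 16.4% and 12.7%, lay near those of all genes. The calls came from 10 hnRNP genes, 3 SR genes, 2 SF3 genes and 1 CLK gene. No Sm or snRNP gene passed, with 3 lower at an unadjusted p under 0.05. All 16 genes called had groups of libraries that did not overlap, as did 10 members with higher and 10 with lower RA_OGTi libraries in all, against 23.7% and 20.5% of all genes tested. Of the 5 mESC markers, Pou5f1, Sox2, Nanog and Zfp42 averaged less in RA_OGTi than in RA_control, at 133 against 173, 44.5 against 58.3, 26.0 against 37.1 and 23.4 against 26.2 FPKM, and Esrrb more, and their part in these changes was not tested.

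Hnrnpd rose by the largest amount. It stood at 25.9, 25.5 and 25.5 FPKM in RA_OGTi libraries, against 15.5, 14.6 and 14.9 FPKM in RA_control libraries (25.6 ± 0.263 and 15.0 ± 0.459 FPKM, SD, n = 3 each; log2 fold change 0.74, SE 0.045, adjusted p = 2.14e-06). The 3 libraries of each group differed among themselves by less than 1 FPKM. Srsf9, a short SR protein of constitutive and alternative splicing, had 101, 95.3 and 113 FPKM in RA_OGTi, against 82.7, 74.2 and 79.9 FPKM in RA_control (log2 fold change 0.37, SE 0.071, adjusted p = 0.00243). Srsf6 had 37.2, 34.2 and 36.9 FPKM, against 27.9, 30.3 and 28.4 FPKM (log2 fold change 0.31, SE 0.054, adjusted p = 0.00132). For both SR genes every inhibitor library lay above every control library. Hnrnpul1, a relative of hnRNP U, rose by 0.28 on the log2 scale, with 27.6, 26.9 and 26.9 FPKM in RA_OGTi, against 22.9, 21.9 and 22.0 FPKM in RA_control (SE 0.039, adjusted p = 0.000443). Of the SF3 genes Sf3b4 rose by 0.24 and Sf3a1 by 0.19, and Hnrnpa0, Hnrnpl and Hnrnpul2 rose by 0.19, 0.16 and 0.15.

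The falls were led by the 3 hnRNP H genes. Hnrnph3 had 19.7, 20.2 and 19.4 FPKM in RA_OGTi, against 27.3, 28.3 and 25.5 FPKM in RA_control (log2 fold change -0.43, SE 0.066, adjusted p = 0.000671). Hnrnph2 had 7.32, 7.92 and 8.06 FPKM, against 10.4, 10.8 and 9.78 FPKM (log2 fold change -0.37, SE 0.057, adjusted p = 0.000661). Hnrnph1 had 35.7, 34.2 and 32.7 FPKM, against 42.6, 45.0 and 41.4 FPKM (log2 fold change -0.32, SE 0.047, adjusted p = 0.000510). In all 3 genes each RA_OGTi library was below each RA_control library, whereas Hnrnpf, the remaining member of this subfamily, stood at 87.9 ± 1.21 and 86.0 ± 6.92 FPKM (SD, n = 3 each; log2 fold change 0.03, SE 0.064). Hnrnpa2b1, which reads out m6A-marked and AGG-rich RNA, had 79.5, 79.1 and 74.6 FPKM in RA_OGTi, against 95.5, 98.5 and 95.7 FPKM in RA_control (log2 fold change -0.31, SE 0.044, adjusted p = 0.000458). Srsf7 had 56.1, 59.5 and 61.8 FPKM, against 68.6, 71.7 and 71.3 FPKM (log2 fold change -0.25, SE 0.046, adjusted p = 0.00186). Clk1 fell by 0.23 and Hnrnpll, a regulator of exon exclusion in lymphocytes, by 0.16. Sf3b1, Hnrnpk and Srsf2 did not pass, at log2 fold changes of -0.07, 0.05 and 0.12.

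Of the 16 calls, 11 held in each of the 6 fits that left out 1 of these libraries. Hnrnpa0 lost its call without RA_OGTi replicate 1 (adjusted p = 0.0540, range over all alternatives 0.00231 to 0.0652). Hnrnpul2 lost it without RA_control replicate 3 or RA_OGTi replicate 1 or 3 (0.0537 to 0.0815, range 0.0186 to 0.0815). Hnrnpl lost it without RA_control replicate 2 or 3 or RA_OGTi replicate 1 or 3 (0.0505 to 0.108, range 0.00166 to 0.108), and Clk1 without RA_control replicate 1 or 2 or RA_OGTi replicate 1 or 3 (0.0624 to 0.107, range 0.00847 to 0.147). Hnrnpll kept it only without RA_control replicate 3 and lost it in the other 5 fits (0.0548 to 0.147, range 0.0240 to 0.245).

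**Figure D3:**
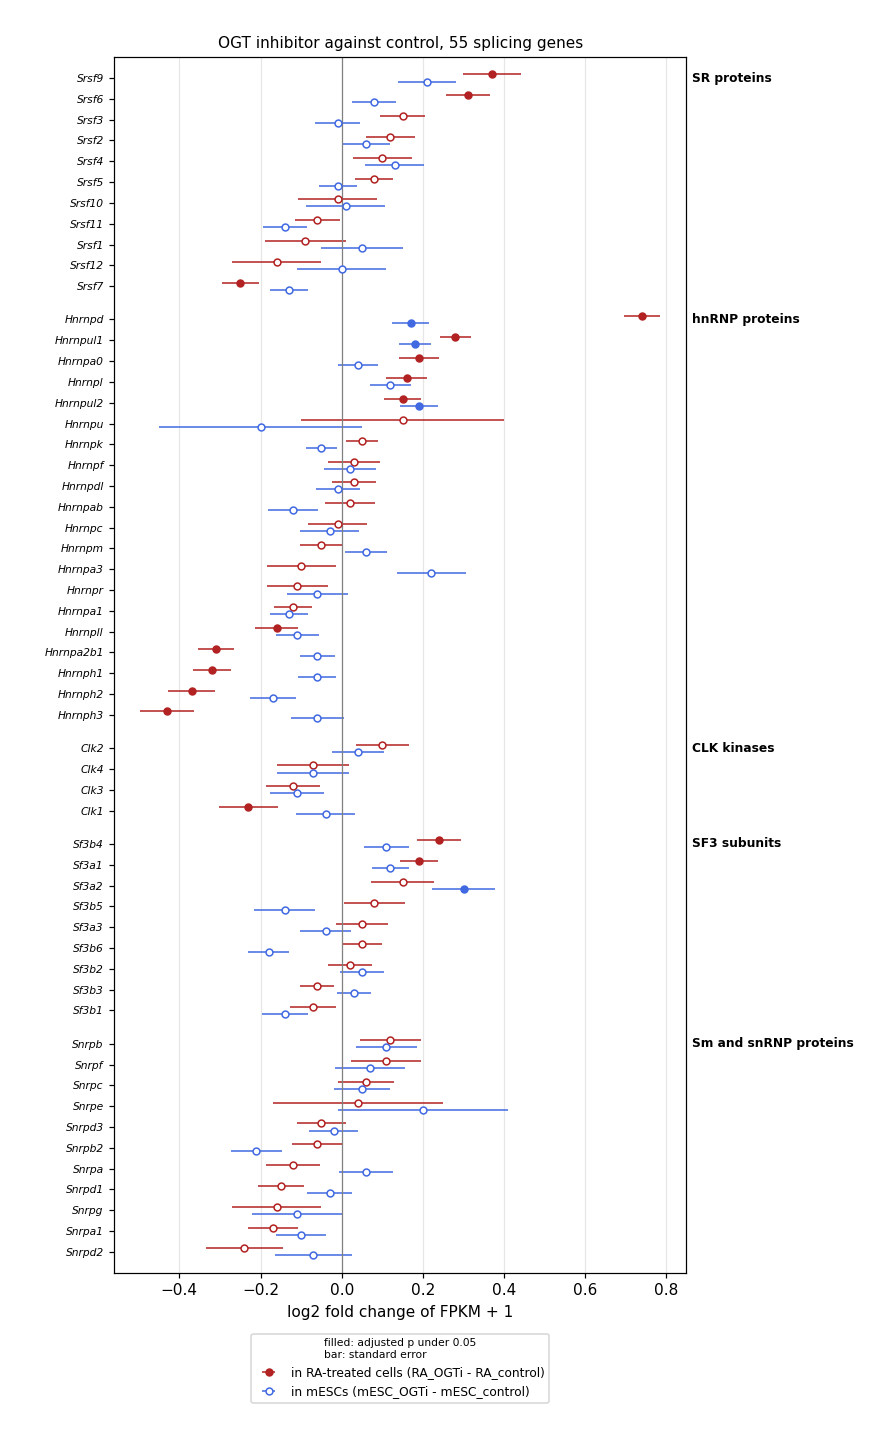
Log2 fold change of FPKM + 1 (x axis, with standard error) of each member (y axis, by family) with the OGT inhibitor in RA-treated cells (RA_OGTi minus RA_control) and in undifferentiated cells (mESC_OGTi minus mESC_control); filled points passed an adjusted p of 0.05. Hnrnpd in RA-treated cells stands farthest right at 0.74, and Hnrnph3 farthest left of the called genes at -0.43.

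In undifferentiated cells the inhibitor changed few of these genes, as it did among all genes tested, and by small amounts. In mESC_OGTi against mESC_control, 4 members rose and 0 fell (limma, adjusted p under 0.05), where 4.60% of all genes tested rose and 3.18% fell. The members' shares, 7.27% and 0%, lay near those of all genes. At an unadjusted p under 0.05, 8 members were higher and 7 lower, and limma-voom on recovered fragments also called 4 higher and 0 lower. Sf3a2 had 53.4, 55.6 and 60.8 FPKM in mESC_OGTi, against 43.5, 43.4 and 50.2 FPKM in mESC_control (log2 fold change 0.30, SE 0.077, adjusted p = 0.0351). Hnrnpul2 rose by 0.19, Hnrnpul1 by 0.18 and Hnrnpd by 0.17, with adjusted p = 0.0325, 0.0213 and 0.0473. Hnrnpd had 49.9, 47.1 and 48.7 FPKM, against 42.1, 41.8 and 45.7 FPKM. The inhibitor libraries lay above the control libraries in all 4 genes, and Hnrnpd, Hnrnpul1 and Hnrnpul2 also rose with the inhibitor in RA-treated cells.

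None of these 4 calls held whichever library was left out. Hnrnpul2 lost its call in all 6 such fits (adjusted p = 0.0501 to 0.114, range over all alternatives 0.0260 to 0.114). Hnrnpd kept it only without mESC_control replicate 3 and lost it in the other 5 fits (0.0877 to 0.154, range 0.0322 to 0.154). Hnrnpul1 kept it only without mESC_OGTi replicate 1 (up to 0.0789 in the other 5 fits, range 0.0178 to 0.0789). Sf3a2 lost it without mESC_control replicate 1 or 2 or mESC_OGTi replicate 2 or 3 (0.0929 to 0.121, range 0.00945 to 0.121). In a fit of these 2 groups alone the 4 genes had adjusted p = 0.0539 to 0.0922.

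The inhibitor's effect differed between RA-treated and undifferentiated cells for 4 members, all hnRNP genes. In the test of the difference itself, 1 member was more positive in RA-treated cells and 3 more negative (limma, adjusted p under 0.05), where 3.90% of all genes tested were more positive and 3.79% more negative. Hnrnpd rose by 0.74 on the log2 scale in RA-treated cells and by 0.17 in mESCs, a difference of 0.57 (SE 0.064, adjusted p = 0.000688). This difference passed under all 21 alternatives (range 2.64e-05 to 0.00337), among them median-of-ratios scaling, which the deposited values already carry. For Hnrnph3 the log2 fold changes were -0.43 and -0.06, a difference of -0.37 (SE 0.094, adjusted p = 0.0341). Hnrnph1 had -0.32 and -0.06, a difference of -0.26 (SE 0.066, adjusted p = 0.0387), and Hnrnpa2b1 had -0.31 and -0.06, a difference of -0.25 (SE 0.063, adjusted p = 0.0326). For Hnrnph2, with -0.37 and -0.17, the difference of -0.20 did not pass (SE 0.080, adjusted p = 0.149). The difference of Hnrnpd was thus the most stable, and those of Hnrnph3, Hnrnph1 and Hnrnpa2b1 lost their calls in 8, 10 and 9 of the 12 fits that left out 1 library, at adjusted p of up to 0.0797, 0.0862 and 0.0779.

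**Figure D4:**
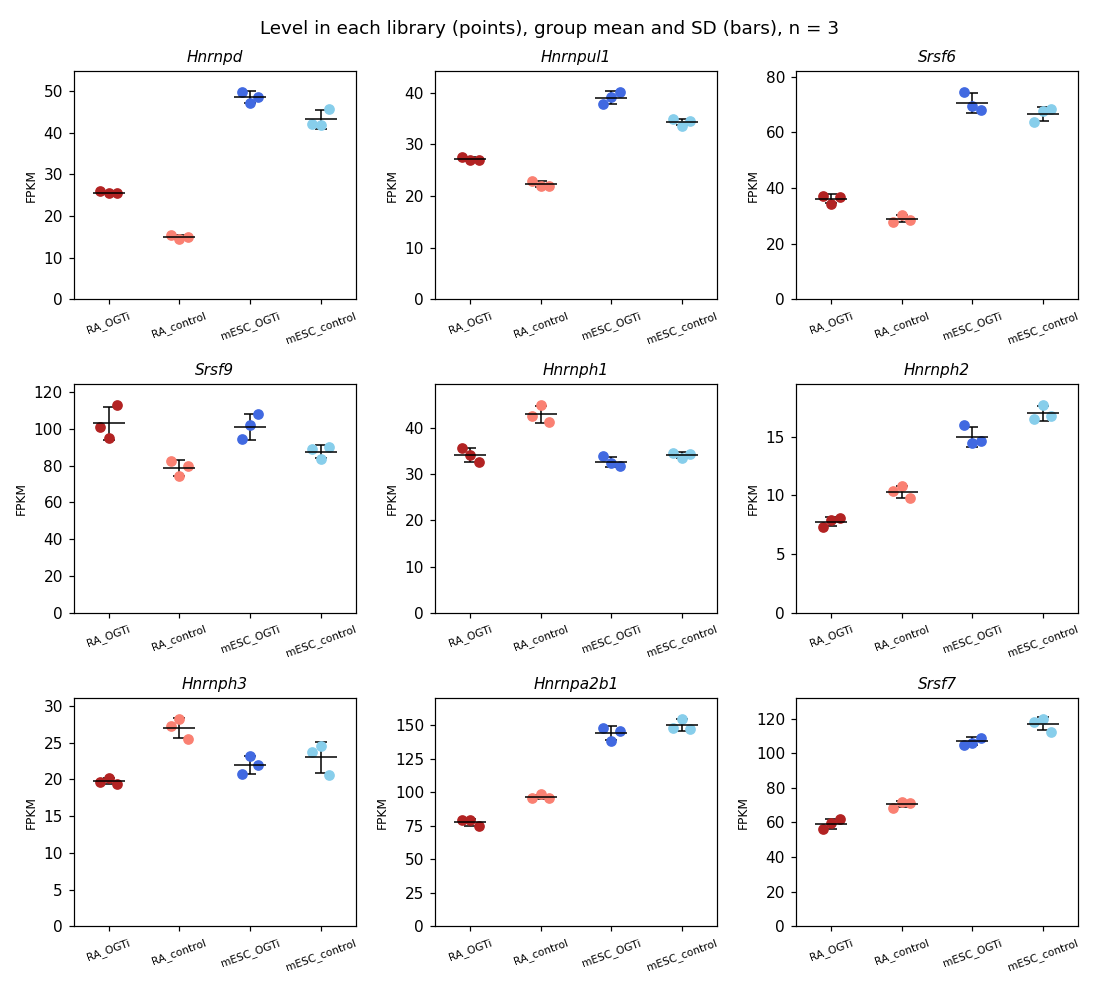
FPKM (y axis, from 0) of 9 members in each library (points) of the 4 groups (x axis), with the mean and SD of 3 libraries in black. Hnrnpd in RA_control, at 14.6 to 15.5 FPKM, lies below all other groups, and Hnrnph1 and Hnrnph3 in RA_control lie above all other groups.

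The upstream sequences of the members on which these inhibitor results turn are shown next, as the 150 bases before the transcription start, 5′ to 3′ on the gene's strand, from RefSeq on GRCm38.p6. Capitals mark matches on either strand to a CCAAT box (CCAAT), a GC box (GGGCGG) or an E-box (CACGTG), so that ATTGG and CCGCCC are the same motifs on the other strand. The first 4 are the genes whose inhibitor effect differed between the states, and the others are Hnrnph2 and the 2 SR genes that rose in RA-treated cells.
Hnrnpd, chr5:99978939-99979088, minus strand: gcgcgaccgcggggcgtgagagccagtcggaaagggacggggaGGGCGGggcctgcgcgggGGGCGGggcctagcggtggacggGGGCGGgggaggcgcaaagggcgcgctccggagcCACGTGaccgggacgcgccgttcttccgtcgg
Hnrnph3, chr10:63023850-63023999, minus strand: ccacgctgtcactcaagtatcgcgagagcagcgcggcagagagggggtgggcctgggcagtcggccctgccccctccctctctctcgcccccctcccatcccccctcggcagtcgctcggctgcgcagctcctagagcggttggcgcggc
Hnrnph1, chr11:50376840-50376989, plus strand: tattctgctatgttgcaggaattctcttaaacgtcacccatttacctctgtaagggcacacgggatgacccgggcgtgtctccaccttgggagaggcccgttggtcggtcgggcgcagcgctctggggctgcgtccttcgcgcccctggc
Hnrnpa2b1, chr6:51469895-51470044, minus strand: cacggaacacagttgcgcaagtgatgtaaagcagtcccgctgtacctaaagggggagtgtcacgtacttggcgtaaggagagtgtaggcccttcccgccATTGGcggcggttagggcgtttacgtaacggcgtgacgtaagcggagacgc
Hnrnph2, chrX:134601029-134601178, plus strand: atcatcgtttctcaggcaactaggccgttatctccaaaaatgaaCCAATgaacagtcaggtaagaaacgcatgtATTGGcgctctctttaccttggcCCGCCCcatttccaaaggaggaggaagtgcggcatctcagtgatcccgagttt
Srsf6, chr2:162931358-162931507, plus strand: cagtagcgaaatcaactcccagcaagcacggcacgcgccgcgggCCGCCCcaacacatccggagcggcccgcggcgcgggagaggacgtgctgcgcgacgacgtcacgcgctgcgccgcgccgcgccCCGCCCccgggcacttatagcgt
Srsf9, chr5:115327027-115327176, plus strand: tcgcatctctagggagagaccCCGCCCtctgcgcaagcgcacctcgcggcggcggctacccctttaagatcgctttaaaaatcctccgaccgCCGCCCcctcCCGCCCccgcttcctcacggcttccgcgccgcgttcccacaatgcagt
The start used lay 368 bases from the deposited gene start for Hnrnph3, 20 for Srsf6 and 0 for the others. Hnrnpd, which responded most, had 79.3% GC in this stretch, with 3 GC boxes and an E-box, while Hnrnph2 had 48.7% GC with 2 CCAAT boxes and a GC box, and the stretches of Hnrnph1 and Hnrnph3 held no match. In the wider promoter window described next, all 3 hnRNP H genes, which fell with the inhibitor in RA-treated cells, held a GC box. So did 35 of 48 member promoters, among them those of Hnrnpd, Srsf6 and Srsf9, which rose there. Hnrnph1 and Hnrnph2 held CCAAT, as did 22 of the 48.

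Over all members, 48 of 55 had a promoter in RefSeq's table, of 300 bases from 250 before to 50 after the start. The start used lay up to 2349 bases from the deposited gene start, the largest distance being that of Hnrnpl. The GC box was present in 72.9% of these, against 46.3% of protein-coding and 35.7% of all promoters. The ETS motif CCGGAAG was present in 35.4%, 17 of 48, against 11.9% of protein-coding and 8.86% of all promoters, and its holders included Hnrnpd, Srsf7, Sf3a1 and Sf3b3. CCAAT was found in 45.8% against 39.2% of protein-coding promoters, TATAAA in 12.5% against 13.3% and CACGTG in 12.5% against 7.91%. Member promoters were richer in GC, with a median of 60.7% against 56.3% of protein-coding promoters. The promoters compared with were not limited to genes tested here, while all members were. A difference is therefore not shown to be particular to splicing genes. These are descriptions of the letters, without a test, and neither a match nor its absence shows whether a factor binds.

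The gene-level values do not separate productive transcripts from those with retained introns or poison exons. In GENCODE M21, 28 of the 55 members (50.9%) have a transcript annotated for nonsense-mediated decay, against 27.5% of protein-coding genes tested, and 42 (76.4%) have a retained-intron transcript, against 56.8%. SR genes (9 of 11) and CLK kinases (4 of 4) carry decay transcripts most often, and SF3 subunits (1 of 9) least. Hnrnpd has 4 such transcripts and Clk1 has 2 with 7 retained-intron transcripts, while Hnrnph1 and Hnrnph2 have none of either kind. The sources used here do not state the strand setting of the counting, so reads of overlapping genes on the other strand cannot be told apart. Snrpf shares 85.4% of its exon bases with such genes, Srsf4 43.0%, Hnrnpab 29.1%, Hnrnpf 26.5%, Srsf2 25.3%, Sf3a2 16.1% and Clk3 15.2%, and these genes are less certain. Hnrnpd shares 5.24%, and Hnrnph1, Hnrnph2, Hnrnpa2b1, Srsf6, Srsf7, Srsf9 and Hnrnpul1 share none. On the same strand, Hnrnpm shares 14.7% of its exon bases with March2. Its deposited length was 4701 bases, against 7956 in GENCODE M21, so Hnrnpm is less certain too.

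Other splicing genes, in 7 lists outside the rule, fell with RA as well on the deposited scaling. The lists were not counted under other scalings or with a library left out. Their median log2 fold changes ran from -0.551 (tri-snRNP and LSm proteins) to -0.193 (minor spliceosome) and -0.192 (alternative splicing regulators). The median of all genes moved from -0.03 as deposited to 0.16 by library total and 0.22 by TPM. Among the 7942 genes with a mean of at least 5 FPKM it was -0.18 as deposited. The medians of the minor spliceosome and of the alternative splicing regulators lay near that value. The lists themselves were not cut at this level. In RA_control against mESC_control, where 37.2% of all genes tested fell and 33.7% rose, 14 of 18 U1, U2 and U5 proteins tested fell and 2 rose, 13 of 19 tri-snRNP and LSm proteins fell and 1 rose, and 16 of 21 Prp19 complex and helicase genes fell and 2 rose. Of these Prpf31, a tri-snRNP assembly factor, fell by 1.35 on the log2 scale, U2af1, which recognises the 3′ splice site, by 0.99, and Cdc5l, a Prp19 complex member, by 1.48, while Cwc22, which loads the exon junction complex, rose by 0.42. Of 18 exon junction and nonsense-mediated decay genes 14 fell and 1 rose, and Rbm8a fell by 1.58, and of 18 SR-related proteins and kinases 11 fell and 1 rose, and Tra2b fell by 1.07. The alternative splicing regulators were more mixed, with 17 of 31 lower and 5 higher. Sfpq, a paraspeckle protein gene, fell by 1.47, from 56.9 to 19.9 FPKM. Rbm24, a muscle splicing factor, rose by 1.30, from 0.309 to 2.22 FPKM. On log2(FPKM + 1) the changes of genes at such low levels come out smaller, so these sizes cannot be ranked. The minor spliceosome list, for the rare U12-type introns, had 6 of 12 lower and 3 higher, Zcrb1 among them with a rise of 0.67.

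With the inhibitor in RA-treated cells, where 17.6% of all genes tested rose and 14.3% fell, 6 of the 18 exon junction and decay genes rose and 1 fell. Upf1, the helicase of nonsense-mediated decay, stood at 43.8 ± 0.388 FPKM in RA_OGTi and 32.1 ± 1.77 FPKM in RA_control (SD, n = 3 each; log2 fold change 0.44, SE 0.052, adjusted p = 0.000139), and at 66.2 ± 0.534 FPKM in mESC_OGTi and 51.7 ± 3.27 FPKM in mESC_control (log2 fold change 0.35, SE 0.052, adjusted p = 0.00444). Of the 18 SR-related genes 5 fell and the others did not pass. Pnn and Rnps1, exon junction-associated proteins, were among the 5, and Rnps1 stood at 41.5 ± 1.92 FPKM in RA_OGTi and 52.2 ± 0.977 FPKM in RA_control (log2 fold change -0.32). Cwc22 fell by 0.54 and Elavl3, a neuronal RNA-binding protein gene, by 0.58, while Sfpq rose by 0.38 and Rbm20 by 0.44. Of these, 2 were low, Elavl3 at 1.46 FPKM in RA_OGTi and 2.69 in RA_control, and Rbm20 at 2.25 and 1.39. The remaining counts in RA-treated cells were 4 higher and 2 lower of 18 U1, U2 and U5 genes, 3 and 2 of 19 tri-snRNP genes, 5 and 2 of 21 Prp19 and helicase genes, 1 and 2 of 12 minor spliceosome genes and 7 and 7 of 31 regulators. In undifferentiated cells, 4.60% of all genes tested rose and 3.18% fell, and at most 2 genes of any list passed in either direction. Of 18 exon junction and decay genes 2 rose (11.1%) and 0 fell, and of 19 tri-snRNP genes 2 fell (10.5%) and 0 rose. Crnkl1, a Prp19-associated factor, was the 1 of 21 Prp19 and helicase genes that passed, and it fell by 0.52. In the test of the difference of the inhibitor effects, 3.90% of all genes tested were more positive in RA-treated cells and 3.79% more negative. Prpf31 (0.31) and Prpf38a (0.36), 2 of 19 tri-snRNP genes, and Khdrbs1 (0.30), 1 of 31 regulators, were more positive. Pcbp2 (-0.32), also 1 of 31 regulators, was more negative, and no gene of the other lists passed.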

How the data were processed

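Per the labels' protocols, TRIzol was used for the total RNA and a NEBNext Ultra kit for the libraries. Per the submitters' processing notes, HISAT2 2.0.5, featureCounts 1.5.0 and GRCm38 were used. The authors deposited FPKM per gene. In all libraries, 100% of FPKM values times gene length came out as whole fragments (tolerance 0.02). The deposited FPKM carry a median-of-ratios scaling, at 0.883 to 0.934 fragments per implied fragment in RA libraries and 1.06 to 1.11 in mESC libraries. Replicates differed by more than sampling noise (chi-square per gene 3.74 to 9.96).

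Genes that reached 1 FPKM in 3 or more libraries were tested on log2(FPKM + 1) by limma 3.58.1 in R 4.3.3 (intensity trend), a scale on which low genes show smaller changes. The 12 libraries entered 1 fit with no replicate block, and tests were two-sided at a Benjamini-Hochberg adjusted p of 0.05 over all genes in each of 5 comparisons. The script was tested on simulated data. Named genes were up to 3 rises and 3 falls per family in each comparison, up to 8 called members for the difference, up to 2 per direction in each list, 18 members whatever their values, and the ends of ranges of level. Further members are named with their values beside these, chosen after those values were seen. The members and the 7 lists were chosen with earlier results of these data known. Alternatives were another pseudocount, no filter, a stricter filter, 3 scalings, fits of the groups compared only, no trend, a replicate block, limma-voom on recovered fragments and leaving out each library. Annotation came from GENCODE M21, in which 49 of 55 members had the deposited coordinates and 48 the deposited length. Tables and figures were made in Python 3.11.15 (numpy 2.4.6, pandas 2.3.3, matplotlib 3.10.9).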

Additional observations from a re-analysis of the deposited data

Results flagged for a closer look

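The inhibitor's effect differed between RA-treated cells and mESCs, by the test of the difference itself, for 4 of the 55 members, 1 more positive in RA-treated cells (1.82%) and 3 more negative (5.45%), near the 3.90% and 3.79% of all genes tested. For Hnrnpd the difference in log2 fold change was 0.57, with every inhibitor library above every control library in both states. For Hnrnph3 it was -0.37, for Hnrnph1 -0.26 and for Hnrnpa2b1 -0.25, each lower with the inhibitor in 3 of 3 RA-treated libraries and with a log2 fold change of -0.06 that did not pass in mESCs. The last 3 lost their calls under TPM scaling (limma adjusted p = 0.118, 0.246 and 0.172) and under library totals (0.0579, 0.115 and 0.0777), over ranges of 0.0180 to 0.118, 0.0348 to 0.246 and 0.0285 to 0.172 across all alternatives.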

How the results depend on the processing

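Of 4649 alternative values of the 275 member results, 55 genes in 5 comparisons, 4294 kept their direction and their side of the threshold, 138 changed sign without passing in either fit, 141 lost a call, 65 gained one and 11 turned sign with a call in one fit. These 11 came under TPM and library total scaling. Values under median-of-ratios scaling, which repeats the deposited one, are counted among the 4649. For RA without inhibitor, Hnrnpc turned to 0.15 under TPM and Srsf4 to 0.01 under TPM and 0.00 by library total. For RA in the inhibitor groups, TPM and library totals gave 0.20 and 0.18 for Hnrnpc (limma adjusted p = 0.00466 and 0.0163), 0.03 and 0.01 for Sf3b6, 0.07 and 0.05 for Srsf11, and 0.01 and 0.00 for Srsf4, against deposited-scale values of -0.08, -0.23, -0.20 and -0.24. For the inhibitor in mESCs, 4 members were higher and 0 lower, against 1 higher with no filter, 0 higher with only the groups compared, 1 higher without the intensity trend, 2 lower at a mean of at least 5 FPKM and 1 lower by library total. With RA and no inhibitor, 6 members were higher, against 10 under TPM scaling. With RA in the inhibitor groups, 2 were higher, against 1 at a mean of at least 5 FPKM, and 9 under TPM or library total scaling. For the difference of the inhibitor effects, 1 was more positive and 3 more negative, against 2 more positive by library total, 1 more negative with no filter or no intensity trend, and 0 more negative under TPM or library totals. The shift of all genes under these 2 scalings is given above, and other causes were not tested. Leaving out 1 library gave 0 to 2 members higher and 0 to 1 lower for the inhibitor in mESCs, 5 to 6 higher and 38 to 43 lower for RA without inhibitor, 6 to 9 higher and 5 to 7 lower for the inhibitor in RA-treated cells, 2 to 3 higher and 40 to 41 lower for RA in the inhibitor groups, and 1 to 2 more positive and 0 to 2 more negative for the difference.

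Whether the replicate numbers pair the libraries could not be settled from the values. Deviations from the group means correlated between RA_control and RA_OGTi at 0.123 for replicates 2 and 3 and at -0.00218 for replicate 1. Libraries of unlike number, mESC_OGTi replicate 1 and RA_control replicate 2, reached 0.134. With the replicate block, 4 members were higher and 0 lower for the inhibitor in mESCs, 6 and 43 for RA without inhibitor, 9 and 10 for the inhibitor in RA-treated cells, 3 and 41 for RA in the inhibitor groups, and 1 and 3 for the difference. With 3 libraries a group and 15553627 to 17833464 fragments each, depth limits mainly Srsf12, at 17 to 160 fragments. Srsf1 had 155 to 295 fragments and Hnrnpu 145 to 535. Hnrnpu also varied between libraries of a group, at 1.07, 0.982 and 2.23 FPKM in RA_OGTi.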
